A study of Bos taurus with 40 samples.

Results

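Collagens are the triple-helical proteins that make up most of the extracellular matrix, and each collagen molecule is built from 3 polypeptides, the collagen chains. These are copies of the product of 1 gene or products of more than 1 gene. The chains described here are all rows of a bovine endometrial count table whose name is COL, a number, A and a number in full, with a count of at least 10 in at least 5 of 40 libraries. There were 41 such genes, out of 43 that matched by name and 32671 named genes in the table. COL9A1 and COL10A1 matched by name and fell below the count rule. By class, 11 were fibrillar, 6 belonged to type IV, 2 to the short-chain network collagens, 5 to type VI and 9 to the FACIT group (fibril-associated collagens with interrupted triple helices). The rest were 1 anchoring fibril chain, 2 multiplexins, 4 transmembrane collagens and COL26A1.

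The libraries came from synchronized heifers, 5 on each of days 5, 7, 13 and 16, from which the endometrium of both uterine horns was taken. The horn next to the ovary that carries the corpus luteum, the progesterone-secreting gland left by ovulation, is the ipsilateral one, and the opposite horn is the contralateral one. This gave 8 groups of 5 libraries: ipsilateral horn at days 5, 7, 13 and 16, and contralateral horn at the same days. The study asked whether the 2 horns differ in gene expression. No agent beyond the synchronization is named, the labels count days of pregnancy where the design text counts days after estrus, and the presence of embryos, the breed and the age of the heifers are not given in the sources used here. The material was homogenised whole endometrium, so fewer cells of a type and less RNA per cell cannot be told apart.

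In textbook terms, fibrillar collagens form the tensile fibrils of the stroma, and FACIT collagens sit on their surface and set how fibrils interact. Type IV chains build the basement membranes under epithelia, around vessels and around smooth muscle, and type VI chains form beaded filaments between cells and fibrils. Chains are hydroxylated, folded and trimmed by dedicated enzymes, crosslinked by lysyl oxidases, bound by integrins and discoidin receptors, and removed by proteases. Endometrial stroma, epithelium, vessels and the adjoining muscle each make a different set.

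Libraries held 27.03 to 64.4 M reads assigned to genes (M), and the second deepest held 41.3 M. All 8 stromal fibroblast markers and all 8 epithelial markers had reads in every library and so did the endothelial and smooth muscle markers. The summed smooth muscle markers (ACTA2, MYH11, DES and 5 others) stood at 4845 CPM in ipsilateral day 5 library 8-1350, against 643 to 896 CPM in the other 4 libraries of its group. That library stands apart. Calls of single chains that were lost without it are named, and several counts are given with and without it. Levels are in CPM, the read count scaled to a common library size after TMM scaling, and changes are log2 fold changes from edgeR quasi-likelihood tests. Their standard errors (SE) were derived as the absolute log2 fold change over the square root of the F statistic of the test. A gene is said to rise or fall where its Benjamini-Hochberg adjusted p over all genes tested was below 0.05. The 5 libraries of a group carry 5 different animal tags (such as 8-1350). The p-values rest on an estimate of the spread between libraries within groups. For day changes it is shared by the 4 groups of a horn, and for horn tests by all 8 groups. The horn tests treat the 40 libraries as separate, although the design takes both horns of each heifer.

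Collagen chains held their largest share of the reads on day 5. In the ipsilateral horn the 41 genes held 3.82 ± 0.5096% of all reads on day 5 (SD, n = 5), 2.32 ± 0.655% on day 7, 1.79 ± 0.3796% on day 13 and 1.81 ± 0.413% on day 16. In the contralateral horn the share was 4.86 ± 0.981%, 2.89 ± 0.818%, 2.13 ± 0.703% and 2.15 ± 0.3905% on the same days. Day 5 and day 7 libraries did not overlap in the ipsilateral horn, at 2.98 to 4.33% and 1.39 to 2.93%, and overlapped in the contralateral horn, at 3.699 to 6.12% and 2.21 to 4.17%. The share is weighted by the few chains with most reads and was not tested.

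**Figure D1:**
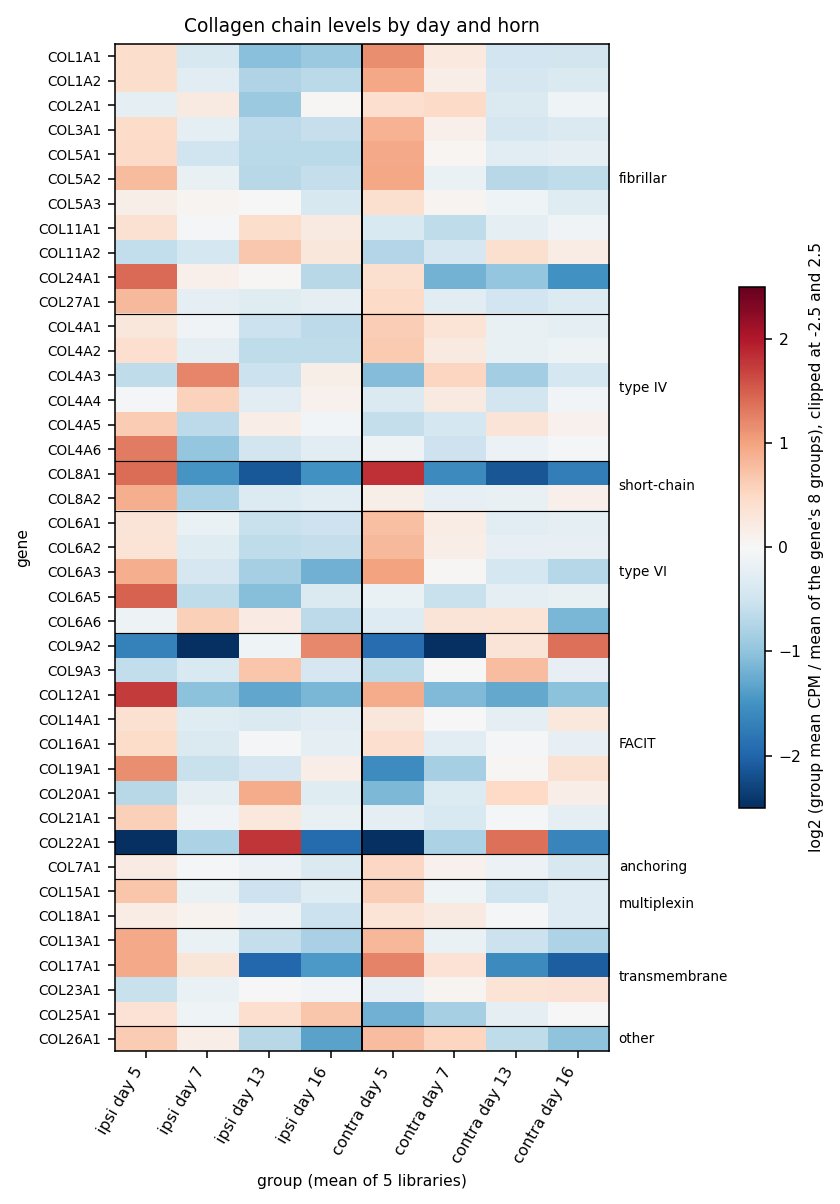
Level of each of 41 collagen chains (rows, ordered by class) in the 8 groups (columns, mean of 5 libraries each), as log2 of the group mean CPM over the mean of the gene's 8 groups, with colours clipped at -2.5 and 2.5. Most fibrillar and type VI chains are red on day 5 and blue on days 13 and 16 in both horns, while COL22A1 is red on day 13 alone and COL9A2 on day 16 and, in the contralateral horn, day 13.

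Between days 5 and 7, 20 of 40 collagen chains tested changed in the ipsilateral horn, 18 lower and 2 higher, where 28.8% of all 19733 genes tested changed (15% higher and 13.7% lower). The median log2 fold change of the chains was -0.67, and that of all genes tested was -0.02. In the contralateral horn 12 of 40 changed, 10 lower and 2 higher, where 20.4% of all genes changed (10.8% higher and 9.58% lower), and the medians were -0.38 and 0.00. All 12 genes called in the contralateral horn were also called in the ipsilateral horn, in the same direction. By design both horns came from the same heifers, so this agreement is not a repeat in separate animals. COL19A1, at fewer reads, was not tested in these fits. The difference between the horns in this change was tested for all 41 genes and passed for 0 (0% of all genes tested), with 3 at an unadjusted p below 0.05 in edgeR and 0 called in DESeq2.

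Fibrillar chains made up the largest block. In the ipsilateral horn 6 of 11 fell (median of the class -0.69) and in the contralateral horn 5 of 11 (median -0.74), and none rose in either. The shares of all genes that fell were 13.7% and 9.58%. COL1A1 encodes the alpha-1 chain of type I collagen, the main protein of most connective tissue fibrils. Its 5 ipsilateral libraries stood at 3202, 3297, 3455, 3919 and 4318 CPM on day 5 and at 1242, 1452, 2270.4, 2428 and 2739.9 CPM on day 7. All 5 day 7 values lay below the lowest day 5 value, and COL1A1 fell 1.801-fold (log2 fold change -0.85 ± 0.21 (SE), adjusted p = 0.00583). Contralateral values were 4048, 5054, 6493, 6784 and 7793 CPM on day 5 and 2312, 2496, 2791, 3785 and 4534 CPM on day 7. There the highest day 7 library exceeded the lowest day 5 library, and the log2 fold change was -0.92 ± 0.25 (SE), adjusted p = 0.0143.

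COL1A2, the alpha-2 chain that joins COL1A1 in type I collagen, fell in both horns as well. Its ipsilateral values were 4917, 5226, 6407, 6836 and 7009 CPM on day 5 and 2298, 2821, 4546, 4585 and 4637 CPM on day 7, with no overlap. The log2 fold change was -0.69 ± 0.19 (SE), adjusted p = 0.0122 in the ipsilateral and -0.78 ± 0.22 (SE), adjusted p = 0.0175 in the contralateral horn. The contralateral call was lost without library 7-300 of day 5 or 4-064 of day 7 (adjusted p up to 0.0571). COL3A1 encodes the single chain of type III collagen, which shares fibrils with type I in distensible organs. Its ipsilateral libraries held 10134, 14359, 14933, 16293 and 16306 CPM on day 5 and 5286, 7418, 10083, 10882 and 11169 CPM on day 7. One day 5 library lay within the day 7 range. The contralateral libraries held 15109, 15671, 18773, 20747 and 25094 CPM and 8614, 9371, 9643, 12744 and 16838 CPM. COL3A1 fell in both horns, by log2 fold changes of -0.69 ± 0.21 (SE), adjusted p = 0.0223 and -0.73 ± 0.22 (SE), adjusted p = 0.0265. Its ipsilateral call was lost without library 7-300 of day 5 or 4-064 or 6-338 of day 7 (adjusted p up to 0.0624), and its contralateral call without library 4-184 or 7-300 of day 5 or 2-371 or 4-064 or 5-117 of day 7 (adjusted p up to 0.0815).

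Type V collagen sits in the core of type I fibrils and sets their diameter, and both of its common chains fell. COL5A2 stood at 749, 852, 1126, 1159 and 1273 CPM in the ipsilateral horn on day 5 and at 298, 412, 631, 633 and 643 CPM on day 7. The ranges did not overlap, and the log2 fold change was -0.98 ± 0.22 (SE), adjusted p = 0.00314. The contralateral values were 765, 1148, 1236, 1326 and 1385 CPM and 379.6, 389, 482, 646 and 774 CPM, with a log2 fold change of -1.13 ± 0.21 (SE), adjusted p = 0.000982. COL5A1 fell from 841 ± 119 to 428 ± 109.7 CPM (mean ± SD, n = 5) in the ipsilateral horn and from 1174 ± 249 to 626 ± 153 CPM in the contralateral horn, at log2 fold changes of -0.98 ± 0.22 (SE), adjusted p = 0.00322 and -0.90 ± 0.23 (SE), adjusted p = 0.00984. A second entry of the table, COL5A1-2, held 7.94% of the reads of both entries and fell by similar amounts (log2 fold changes -1.12 ± 0.27 and -0.94 ± 0.25, SE). COL5A3, the remaining type V chain, held 244 ± 57.05 CPM on day 5 and 233 ± 66.6 CPM on day 7 in the ipsilateral horn and was called in no comparison.

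The other fibrillar chains split. COL27A1, a fibrillar chain best known from cartilage, fell from 227 ± 41.5 to 111 ± 21.2 CPM in the ipsilateral horn with no overlap (log2 fold change -1.04 ± 0.29 (SE), adjusted p = 0.0121), and had -0.74 ± 0.27 (SE), adjusted p = 0.0577 in the contralateral horn. Its second entry, COL27A1-2, with 10.9% of the reads of both, passed in both horns. It had -1.03 ± 0.32 (SE), adjusted p = 0.0213 in the ipsilateral and -0.77 ± 0.26 (SE), adjusted p = 0.0448 in the contralateral horn. COL24A1 had low counts, at 1.71 ± 0.459 CPM on day 5 and 0.703 ± 0.276 CPM on day 7 in the ipsilateral horn; its log2 fold changes of -1.28 ± 0.62 (SE), adjusted p = 0.126 and, in the contralateral horn, -1.55 ± 0.60 (SE), adjusted p = 0.0761 did not pass. COL2A1, the cartilage type II chain, and the type XI chains COL11A1 and COL11A2, which start type II fibrils, were not called in this step, with ipsilateral log2 fold changes of 0.45 ± 0.36, -0.42 ± 0.44 and 0.18 ± 0.49 (SE).

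Among the fibril-associated chains, 2 of 8 tested fell and 1 rose in the ipsilateral horn, and 1 fell and 1 rose in the contralateral horn. Over all genes, 13.7% fell and 15% rose in the ipsilateral horn, and 9.58% and 10.8% in the contralateral horn. The contralateral counts are near these shares. COL12A1, the chain of type XII collagen on the surface of type I fibrils, had the lowest adjusted p of the 40 chains in the ipsilateral horn. Its ipsilateral values were 301, 324, 482, 579 and 1542 CPM on day 5 and 36.6, 89.4, 102, 107 and 138 CPM on day 7. The contralateral values were 152, 242, 317, 429 and 683 CPM and 43.7, 80.3, 95.6, 98.1 and 129 CPM. Day 5 lay above day 7 without overlap in both horns, and on days 13 and 16 the group means stayed between 78.1 and 94.3 CPM. COL12A1 fell 6.83-fold in the ipsilateral horn (log2 fold change -2.77 ± 0.41 (SE), adjusted p = 0.000117) and 4.06-fold in the contralateral horn (-2.02 ± 0.37 (SE), adjusted p = 0.000864). The highest day 5 value, 1542 CPM, came from ipsilateral library 8-1350 with its high smooth muscle markers. Without it the ipsilateral log2 fold change was -2.16, adjusted p = 0.000135.

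COL22A1 moved the other way. It encodes type XXII collagen, known from tissue junctions such as that of muscle and tendon. Its ipsilateral libraries held 1.39, 2.65, 3.97, 6.897 and 6.91 CPM on day 5 and 3.03, 16.8, 21.6, 23.6 and 53.4 CPM on day 7. Contralateral libraries held 1.498, 2.65, 5.16, 7.88 and 9.15 CPM and 2.42, 17.3, 19.3, 19.8 and 58.9 CPM. In each horn 4 of 5 day 7 libraries lay above all day 5 libraries and 1 lay among them. The latter was 5-117 in the ipsilateral and 6-338 in the contralateral horn. Across genes, ipsilateral 5-117 correlated best with contralateral 6-338 (0.83), so these libraries may come from 1 heifer despite their tags. COL22A1 rose 5.46-fold (log2 fold change 2.45 ± 0.64 (SE), adjusted p = 0.00832) and 4.48-fold (2.16 ± 0.61 (SE), adjusted p = 0.0162). The contralateral call was lost without library 4-064 of day 7 (adjusted p up to 0.08203). COL16A1, the fibril-associated chain with most reads, held 220.0, 242, 356, 386 and 454 CPM on day 5 and 112, 164, 207, 227 and 234 CPM on day 7 in the ipsilateral horn, with overlap. It fell there by a log2 fold change of -0.82 ± 0.30 (SE), adjusted p = 0.0469, a call lost without library 1-315 or 3-175 or 7-300 of day 5 or 2-371 or 4-064 or 5-117 or 6-338 of day 7 (adjusted p up to 0.119). COL14A1, a relative of COL12A1 on the same fibrils, had -0.70 ± 0.27 (SE), adjusted p = 0.0594 and -0.28 ± 0.26 (SE), adjusted p = 0.4904 in the 2 horns and was not called. COL21A1, another fibril-associated chain, held 8.74 ± 7.61 CPM on day 5 and 5.45 ± 1.89 CPM on day 7 in the ipsilateral horn and was called in no comparison.

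**Figure D2:**
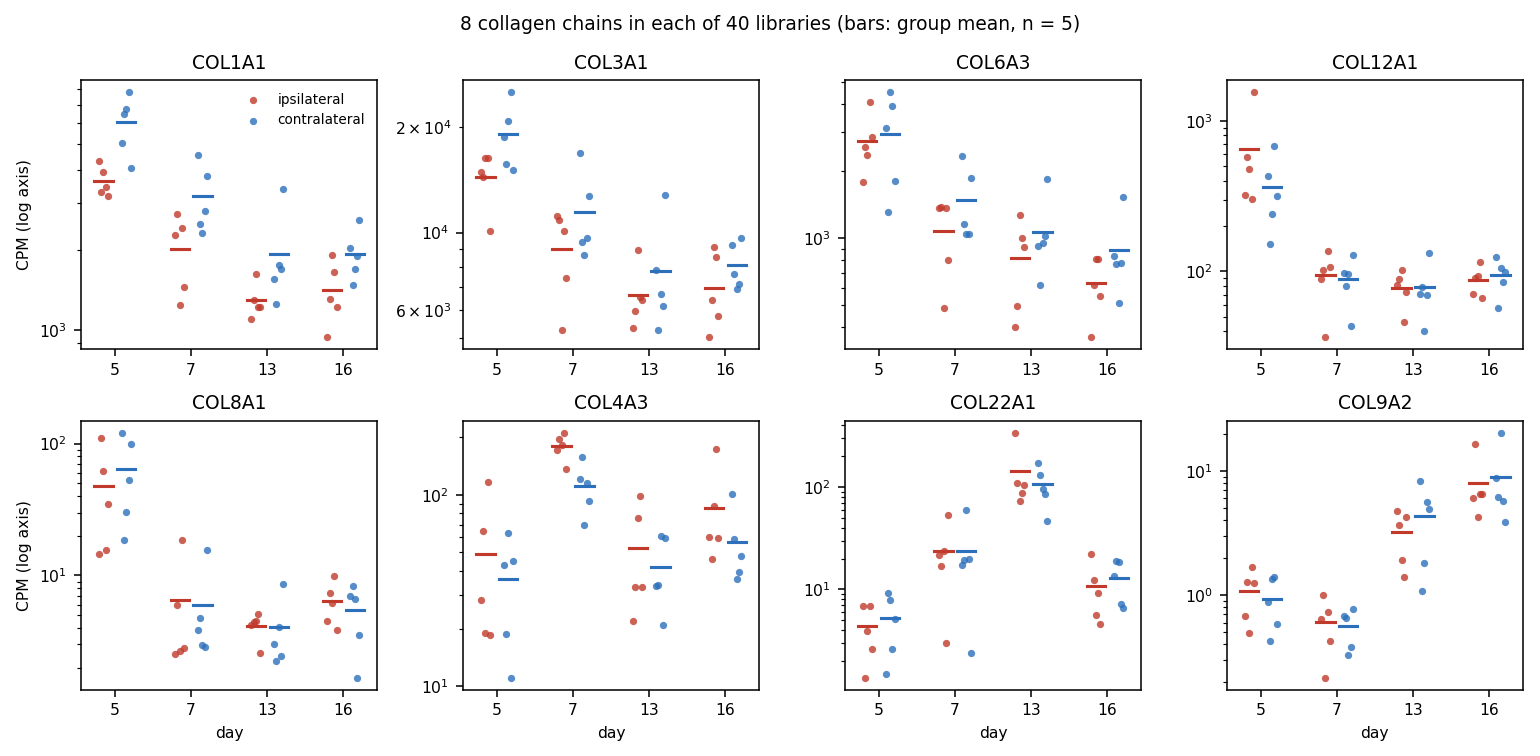
CPM (log axis) of 8 collagen chains in each of 40 libraries by day (horizontal axis), ipsilateral libraries in red and contralateral in blue, with a bar at each group mean (n = 5). COL12A1 and COL8A1 stand high on day 5 in both horns, COL4A3 is highest on day 7, COL22A1 on day 13 and COL9A2 on day 16.

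The largest fall in each horn was that of COL8A1, 1 of the 2 short-chain network collagens, which form hexagonal lattices in vessel walls and other matrices. It held 14.6, 15.7, 34.6, 61.9 and 109.9 CPM in the ipsilateral libraries of day 5 and 2.53, 2.68, 2.84, 5.99 and 18.6 CPM on day 7. The contralateral libraries held 18.7, 30.5, 53.1, 99.2 and 120.3 CPM and 2.87, 2.95, 3.85, 4.78 and 15.6 CPM. The groups did not overlap in the contralateral horn, and in the ipsilateral horn 1 day 7 library, 5-117, reached into the day 5 range. COL8A1 fell 7.23-fold (log2 fold change -2.85 ± 0.60 (SE), adjusted p = 0.00192) and 10.6-fold (-3.41 ± 0.60 (SE), adjusted p = 0.000707), and both calls held without any 1 library. COL8A2, the partner chain, fell in the ipsilateral horn from 3.27 ± 1.9 to 1.01 ± 0.567 CPM (-1.71 ± 0.56 (SE), adjusted p = 0.0299), a call lost without library 1-315 or 3-175 or 7-300 of day 5 or 4-064 or 5-117 or 6-338 of day 7 (adjusted p up to 0.0783). The contralateral COL8A2 value was -0.34 ± 0.40 (SE), adjusted p = 0.599.

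Type VI collagen is assembled from COL6A1, COL6A2 and one further chain, usually COL6A3, with COL6A5 and COL6A6 as alternatives to it. In the ipsilateral horn 3 of 5 fell, where 13.7% of all genes fell, and in the contralateral horn 1 of 5, where 9.58% fell. COL6A1, the type VI chain with most reads, held 2231, 2238, 2272, 2291 and 2699 CPM on day 5 and 1020.3, 1511, 1686, 2025 and 2155 CPM on day 7 in the ipsilateral horn. The ranges did not overlap, yet its log2 fold change of -0.49 ± 0.20 (SE), adjusted p = 0.0777 did not pass, nor did -0.56 ± 0.22 (SE), adjusted p = 0.0797 in the contralateral horn. COL6A2 fell in both horns, from 1476 ± 83.8 to 937 ± 216 CPM (-0.66 ± 0.18 (SE), adjusted p = 0.0117) and from 2045 ± 449.7 to 1307 ± 339.6 CPM (-0.64 ± 0.21 (SE), adjusted p = 0.0397). Its contralateral call was lost without library 3-175 or 4-184 or 7-300 of day 5 or 2-371 or 4-064 or 5-117 or 6-338 of day 7 (adjusted p up to 0.09997).

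COL6A3 fell in the ipsilateral horn. Its ipsilateral values were 1797, 2357, 2578, 2849 and 4072 CPM on day 5 and 489, 796, 1367, 1371 and 1379 CPM on day 7, without overlap, and the log2 fold change was -1.34 ± 0.34 (SE), adjusted p = 0.00663. Contralateral libraries stood at 1313, 1798, 3120.0, 3940.0 and 4507 CPM and 1047, 1048, 1155, 1867 and 2342 CPM, and -0.97 ± 0.36 (SE), adjusted p = 0.0628 did not pass. COL6A5 fell in the ipsilateral horn from 11.5 ± 14.5 to 2.65 ± 2.27 CPM (-2.13 ± 0.72 (SE), adjusted p = 0.0327), but library 8-1350 held 37.3 CPM of it against 3.83 to 7.65 CPM in the other 4. Without that library the log2 fold change was -0.94, adjusted p = 0.257. The call was also lost without library 2-371, 4-064, 5-117 or 6-338 of day 7. COL6A6 held 2.24 ± 1.52 CPM on day 5 and was called in no comparison.

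The 6 type IV chains are encoded in 3 neighbouring pairs (COL4A1 with COL4A2, COL4A3 with COL4A4, COL4A5 with COL4A6), which are adjacent genes in the RefSeq annotation of assembly ARS-UCD2.0 as well. COL4A1 and COL4A2 form the network found in all basement membranes. COL4A1, with most reads of the class, held 783, 817, 943, 1012 and 1093 CPM in the ipsilateral libraries of day 5 and 449, 540.4, 696, 916 and 991 CPM on day 7, with overlap. Its log2 fold changes of -0.38 ± 0.18 (SE), adjusted p = 0.121 and -0.25 ± 0.22 (SE), adjusted p = 0.443 did not pass. COL4A2 fell in the ipsilateral horn from 653 ± 82.9 to 415 ± 143 CPM (-0.66 ± 0.20 (SE), adjusted p = 0.0185), a call lost without library 5-117 of day 7 (adjusted p up to 0.0518), and had -0.41 ± 0.23 (SE), adjusted p = 0.217 in the contralateral horn.

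COL4A3 rose. Its product joins COL4A4 and COL4A5 in the specialised network best known from the kidney glomerulus. It held, in the ipsilateral horn, 18.6, 19.02, 28.3, 64.5 and 116 CPM on day 5 and 136, 172, 183, 196 and 211 CPM on day 7. Its contralateral libraries held 11.1, 18.7, 43.1, 44.9 and 63.04 CPM and 69.3, 92.6, 115, 121 and 157 CPM. Every day 7 library lay above every day 5 library in both horns. COL4A3 rose 3.63-fold (1.86 ± 0.51 (SE), adjusted p = 0.0113) and 3.09-fold (1.63 ± 0.41 (SE), adjusted p = 0.00794), and both calls held without any 1 library. COL4A4, its neighbour, held 37, 39.5, 46.5, 130.3 and 199 CPM on day 5 and 84.3, 134, 145, 146 and 184 CPM on day 7 in the ipsilateral horn, with broad overlap. The log2 fold changes of COL4A4 were 0.61 ± 0.47 (SE), adjusted p = 0.349 and 0.60 ± 0.34 (SE), adjusted p = 0.228, and it was called in no comparison.

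COL4A5 and COL4A6, whose chains form the basement membrane network known around smooth muscle, fell in the ipsilateral horn, by calls that were lost without single libraries. COL4A6 held 14.8, 40.1, 75.8, 87.8 and 184 CPM on day 5 and 8.83, 15.9, 18.8, 19.9 and 20.3 CPM on day 7, and COL4A5 45.1, 81.8, 111, 142 and 371 CPM and 50.9, 54.1, 56.9, 64.04 and 84.1 CPM. The highest value of each on day 5 belonged to library 8-1350. The log2 fold changes were -2.27 ± 0.69 (SE), adjusted p = 0.0194 for COL4A6 and -1.28 ± 0.42 (SE), adjusted p = 0.0288 for COL4A5. Without library 8-1350 they were -1.71, adjusted p = 0.0641 for COL4A6 and -0.62, adjusted p = 0.163 for COL4A5. The COL4A6 call was also lost without library 4-064 of day 7, and the COL4A5 call without 2-1337, 2-371 or 4-064 of day 7. Contralateral log2 fold changes were -0.38 ± 0.57 (SE), adjusted p = 0.684 and 0.16 ± 0.28 (SE), adjusted p = 0.727. The difference between the horns in this change had an unadjusted p of 0.0481 for COL4A6 and 0.00962 for COL4A5, and an adjusted p of 1.00 for both in edgeR.

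Of the multiplexins, basement membrane-zone collagens with several interruptions in the helix, COL15A1 fell in both horns and COL18A1, the source of endostatin, was called in no comparison. COL15A1 went from 687 ± 172 to 379 ± 99.5 CPM (-0.86 ± 0.19 (SE), adjusted p = 0.00245) and from 652 ± 66.2 to 394 ± 96.6 CPM (-0.72 ± 0.15 (SE), adjusted p = 0.00272), without overlap in either horn. COL18A1, with most reads of the class, held 373, 623, 650.5, 714 and 915 CPM on day 5 and 399, 588, 681, 693 and 716 CPM on day 7 in the ipsilateral horn, overlapping throughout. COL7A1, which forms the anchoring fibrils under epithelia, held 115, 347, 416, 492 and 626 CPM and 223, 309, 356, 388 and 418 CPM on the same days and was called in no comparison either.

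Among the transmembrane collagens, COL13A1, a cell-surface collagen of adhesion sites, fell from 52.1 ± 28.7 to 24.2 ± 6.06 CPM (-1.11 ± 0.39 (SE), adjusted p = 0.0373) and from 48.1 ± 13.7 to 24.2 ± 8.62 CPM (-0.99 ± 0.30 (SE), adjusted p = 0.0233). The ipsilateral call was lost without library 4-184 or 7-300 or 8-1350 of day 5 or 2-371 or 4-064 or 5-117 or 6-338 of day 7 (adjusted p up to 0.133) and the contralateral call without library 4-184 or 7-300 of day 5 or 2-371 or 4-064 or 5-117 of day 7 (adjusted p up to 0.0658). Without library 8-1350 the ipsilateral log2 fold change of COL13A1 was -0.76, adjusted p = 0.133. COL23A1, the transmembrane chain with most reads, held 3.16, 13.7, 18.1, 30.8 and 46.1 CPM and 25.9, 26.5, 30.2, 31.5 and 32.4 CPM in the ipsilateral horn on days 5 and 7, with 3 day 5 libraries below the day 7 range, 1 inside it and 1 above it. It was called in no comparison. COL26A1, a secreted collagen first described in the gonads, held 11.4, 50.3, 93.3, 97 and 117 CPM and 29.9, 46.8, 50.7, 58.7 and 82.01 CPM, with overlap, and did not pass.

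**Figure D3:**
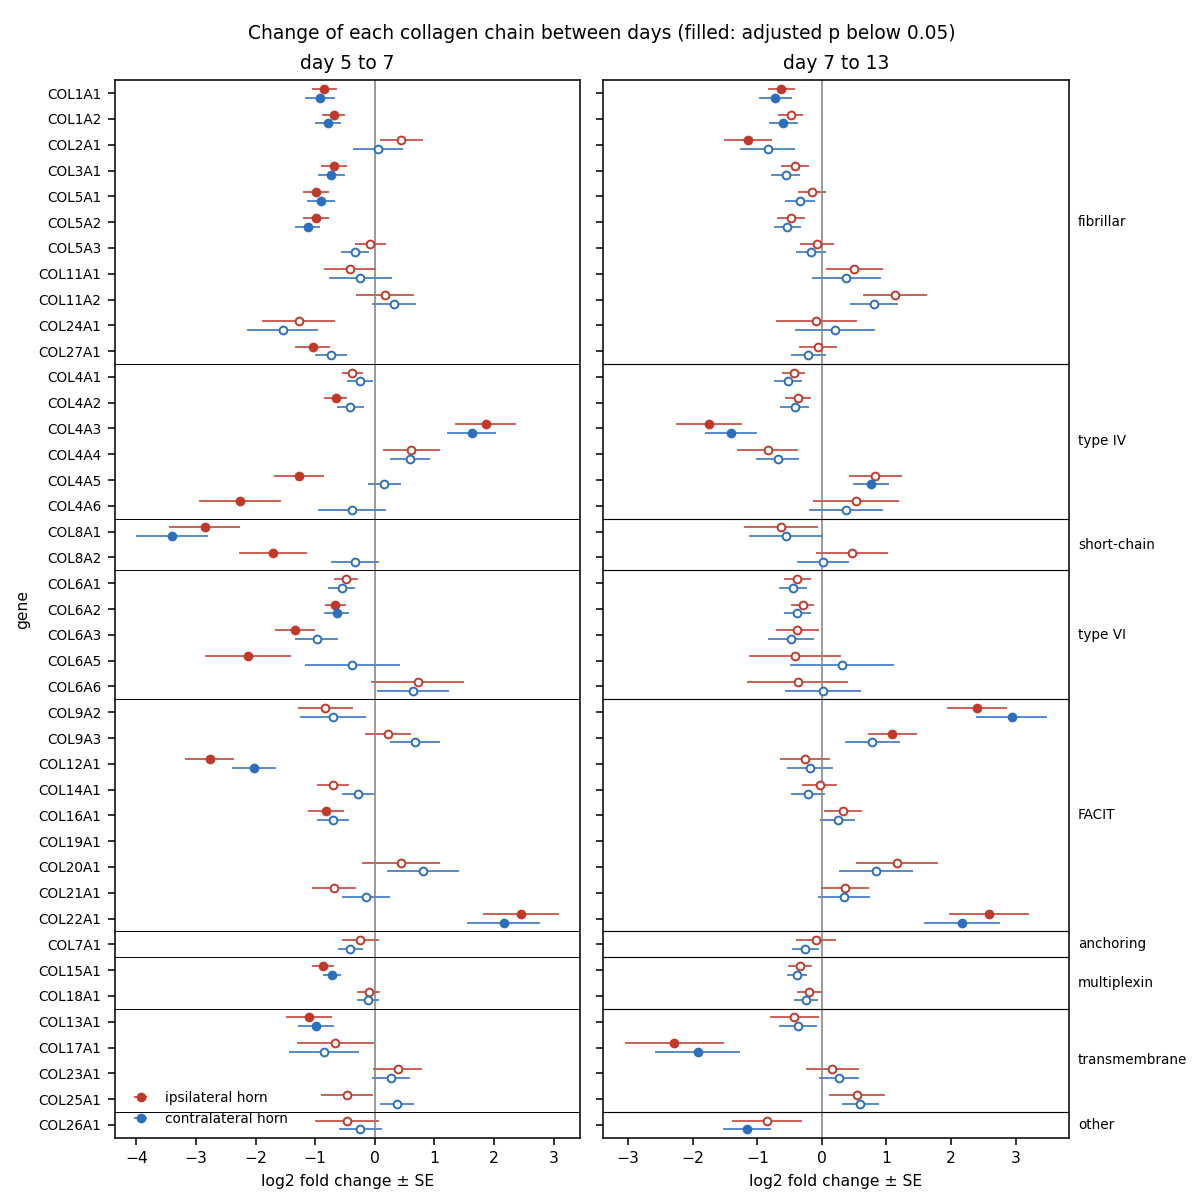
Log2 fold change ± SE (horizontal axis) of each collagen chain (rows, by class) from day 5 to 7 and from day 7 to 13, ipsilateral horn in red and contralateral in blue, with filled symbols where the adjusted p was below 0.05. From day 5 to 7 most filled symbols lie left of 0 and COL4A3 and COL22A1 lie right, and from day 7 to 13 COL4A3 is at the left and COL9A2 and COL22A1 at the right.

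Cell-type markers changed in part over the same step, where 13.7% of all genes were lower and 15% higher in the ipsilateral horn and 9.58% and 10.8% in the contralateral horn. Stromal fibroblast markers fell for 5 of 8 genes in the ipsilateral horn (median log2 fold change -0.59) and for 1 of 8, near the share of all genes, in the contralateral horn (-0.26). Their summed level ranged over 5110.4 to 7814 CPM on day 5 and 3750.3 to 6361 CPM on day 7 in the ipsilateral horn, and over 5296 to 7915 and 4152 to 6914 CPM in the contralateral horn. Smooth muscle markers fell for 6 of 8 and 3 of 8 genes, with sums of 643 to 4845 and 273 to 533 CPM in the ipsilateral horn and 635 to 1223 and 361 to 663 CPM in the contralateral horn. Without library 8-1350, 4 of 8 smooth muscle markers fell in the ipsilateral horn, and the highest sum on day 5 was 896 CPM. Epithelial markers rose for 4 and fell for 1 of 8 in the ipsilateral horn and rose for 2 and fell for 1 in the contralateral horn, with ipsilateral sums of 677 to 1053 and 942 to 1259 CPM. The endothelial markers had medians of -0.04 and -0.05 and the leukocyte markers of -0.24 and -0.19 in the 2 horns. The part of these shifts in the collagen result was not tested.

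The count of calls moved with single libraries. Without ipsilateral day 5 library 8-1350, 6 fibrillar, 1 type IV, 2 short-chain, 2 type VI, 2 FACIT and 1 multiplexin chains fell in that horn. In that fit 1 type IV and 1 FACIT chain rose, and 0 transmembrane chains were called. Without ipsilateral day 7 library 4-064 the ipsilateral count was 13 in place of 20, and without contralateral day 7 library 4-064 the contralateral count was 7 in place of 12, while without contralateral day 7 library 2-1337 it was 18. With a covariate for the share of reads in microRNA and tRNA genes, the counts were 18 and 6. Under that covariate COL4A5, COL6A5 and COL13A1 were not called in the ipsilateral horn (adjusted p of 0.0671 to 0.273), nor COL1A1, COL1A2, COL3A1, COL6A2, COL13A1 and COL22A1 in the contralateral horn (adjusted p of 0.0503 to 0.1298). With log2 depth as a covariate COL4A5, COL6A5 and COL16A1 in the ipsilateral and COL3A1, COL6A2 and COL13A1 in the contralateral horn were not called (adjusted p of 0.0547 to 0.0783). With only the 10 libraries of both days the calls of COL3A1, COL4A2, COL4A5 and COL6A5 in the ipsilateral and of COL22A1 in the contralateral horn were lost (adjusted p of 0.0533 to 0.0733), and with no filter on low counts those of COL16A1 and, in the contralateral horn, COL6A2 (adjusted p = 0.0577 and 0.0512).

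Many genes of collagen synthesis fell in the same step. The share of all genes that fell was 13.7% in the ipsilateral and 9.58% in the contralateral horn, and 15% and 10.8% rose. Of 25 tested enzymes and chaperones that modify or process collagen, 20 fell and 1 rose in the ipsilateral horn (median log2 fold change -0.76) and 16 fell in the contralateral horn (median -0.70). LOXL1, a lysyl oxidase that crosslinks matrix fibres, had -1.26 ± 0.21 (SE, adjusted p = 0.0002797) and -1.29 ± 0.21 (adjusted p = 0.000352). FKBP10, a procollagen chaperone, fell in the ipsilateral horn by 1.23 ± 0.29 on the log2 scale, and P4HA2, a prolyl hydroxylase subunit, fell in the contralateral horn by 1.19 ± 0.13 (SE). Of 9 collagen receptors, 4 fell and 1 rose in the ipsilateral horn, among them the integrin chains ITGA1 (-1.36 ± 0.22) and ITGA11 (-1.13 ± 0.23), and 1 fell in the contralateral horn, the discoidin receptor DDR2 (-0.50 ± 0.12). Of 7 small leucine-rich proteoglycans, which coat fibrils, 4 and 1 fell, with OGN at -1.55 ± 0.27 and -1.003 ± 0.29. DCN and LUM stand both in that list and among the stromal markers. Of 5 tested collagen-degrading proteases, CTSK (cathepsin K) fell in both horns (-1.13 ± 0.24 and -0.57 ± 0.15), and MMP15, a membrane-bound metalloproteinase, rose in the ipsilateral horn (0.80 ± 0.27) with 1 further gene lower there. Without library 8-1350, 17 of 25 enzymes, 4 of 9 receptors, 5 of 7 proteoglycans and 2 of 5 proteases fell in the ipsilateral horn.

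From day 7 to day 13 the chains changed in both directions. In the ipsilateral horn 7 of 40 changed, 3 higher and 4 lower, where 28.6% of all genes tested changed (14.6% higher and 14% lower), and the medians were -0.23 for the chains and 0.03 for all genes. In the contralateral horn 8 of 40 changed, 3 higher and 5 lower, where 33.5% of all genes changed (16% higher and 17.5% lower), and the medians were -0.23 and 0.01. In each horn the share of chains called, 17.5% and 20%, lay below that of all genes. Called in both horns were COL1A1, COL4A3, COL9A2, COL17A1 and COL22A1, each in the same direction. Here too the horns came from the same heifers by design and are not separate sets of animals. The difference between the horns in this change passed for 0 of 41 in edgeR, where 0% of all genes passed, with 0 at an unadjusted p below 0.05, and for 0 in DESeq2.

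COL4A3 fell from day 7 to day 13 in both horns. On day 13 its ipsilateral libraries held 21.96, 32.8, 33.2, 75.6 and 98.98 CPM and its contralateral libraries 20.8, 33.4, 33.9, 59.8 and 61.1 CPM. All lay below the day 7 values of the same horn given above. It fell 3.37-fold (-1.75 ± 0.51 (SE), adjusted p = 0.0137) and 2.66-fold (-1.41 ± 0.40 (SE), adjusted p = 0.0106). With the microRNA and tRNA share of reads as a covariate the contralateral call was lost (-1.20, adjusted p = 0.127). The neighbour COL4A4 had -0.84 ± 0.48 (SE), adjusted p = 0.199 and -0.69 ± 0.34 (SE), adjusted p = 0.126. COL4A5 rose in the contralateral horn from 71.6 ± 11.1 to 121 ± 50.2 CPM (0.76 ± 0.28 (SE), adjusted p = 0.0428), a call lost without library 2-371 or 4-064 or 5-117 or 6-338 of day 7 or 4-1314 or 5-167 or 8-275 of day 13 (adjusted p up to 0.167). In the ipsilateral horn all 5 day 13 libraries of COL4A5 (85.4, 88.8, 99.8, 126 and 145 CPM) lay above the day 7 libraries, and the log2 fold change of 0.83 ± 0.42 (SE), adjusted p = 0.147 did not pass.

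COL22A1 reached its highest level on day 13, at 72.9, 87.5, 103, 109 and 334 CPM in the ipsilateral and 46.7, 84.9, 94.9, 131 and 171 CPM in the contralateral horn. The ipsilateral libraries all lay above those of day 7, and the contralateral ones overlapped with 1 of them. COL22A1 rose 6.02-fold (2.59 ± 0.62 (SE), adjusted p = 0.00395) and 4.49-fold (2.17 ± 0.59 (SE), adjusted p = 0.00792). COL9A2 encodes a chain of type IX collagen, which sits on type II fibrils in cartilage. Its ipsilateral libraries held 0.216, 0.4297, 0.642, 0.735 and 0.998 CPM on day 7 and 1.397, 1.91, 3.69, 4.28 and 4.77 CPM on day 13. The contralateral libraries held 0.331, 0.381, 0.6497, 0.681 and 0.776 CPM and 1.08, 1.82, 4.95, 5.63 and 8.27 CPM. No day 13 library lay within the day 7 range, and COL9A2 rose 5.297-fold (2.41 ± 0.47 (SE), adjusted p = 0.000717) and 7.66-fold (2.94 ± 0.56 (SE), adjusted p = 0.000401). These COL22A1 and COL9A2 calls held without any 1 library. With the microRNA and tRNA share as a covariate the contralateral COL22A1 call was lost (1.66, adjusted p = 0.128).

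COL9A3, another type IX chain, rose in the ipsilateral horn from 24.1 ± 9.03 to 50.9 ± 21.4 CPM (1.09 ± 0.38 (SE), adjusted p = 0.0394), a call lost without library 2-1337 or 2-371 or 4-064 or 6-338 of day 7 or 5-140 or 8-275 of day 13 (adjusted p up to 0.122). Its contralateral log2 fold change was 0.78 ± 0.42 (SE), adjusted p = 0.167. COL2A1 fell in the ipsilateral horn from 19.2 ± 3.32 to 8.59 ± 3.53 CPM without overlap (-1.14 ± 0.37 (SE), adjusted p = 0.0257). Its call was lost without library 4-1314 or 5-140 of day 13 (adjusted p up to 0.05804). COL20A1, a fibril-associated chain of low count, held 1.11 ± 1.27 CPM on day 13 and was called in no comparison.

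COL1A1 fell again, to 1102, 1224, 1224, 1302 and 1624 CPM in the ipsilateral horn (-0.63 ± 0.21 (SE), adjusted p = 0.0287) and 1257, 1563, 1701, 1762 and 3377 CPM in the contralateral horn (-0.72 ± 0.25 (SE), adjusted p = 0.0326). Both overlapped with day 7. The ipsilateral call was lost without library 2-371 or 5-117 of day 7 or 4-1314 of day 13 (adjusted p up to 0.0736) and the contralateral call without library 2-1337 or 6-338 of day 7 or 4-1314 or 5-140 or 5-167 or 6-203 of day 13 (adjusted p up to 0.0905). COL1A2 fell in the contralateral horn (-0.60 ± 0.22 (SE), adjusted p = 0.0458), a call lost without library 2-1337 or 6-338 of day 7 or 4-1314 or 5-140 or 5-167 or 6-203 of day 13 (adjusted p up to 0.124), and had -0.48 ± 0.19 (SE), adjusted p = 0.0671 in the ipsilateral horn. With the microRNA and tRNA share as a covariate the contralateral log2 fold changes were -0.06, adjusted p = 0.886 for COL1A1 and -0.01, adjusted p = 0.985 for COL1A2. Both contralateral calls were also lost with only the 10 libraries of both days (adjusted p = 0.0728 and 0.0996).

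COL17A1, the transmembrane collagen of hemidesmosomes in epithelium, was near the lower end of detection. It held 0.247, 0.357, 0.3603, 0.364 and 1.44 CPM on day 7 and 0, 0.0347, 0.0607, 0.0648 and 0.413 CPM on day 13 in the ipsilateral horn, and 0.208, 0.227, 0.237, 0.632 and 1.58 CPM and 0.0555, 0.0635, 0.112, 0.184 and 0.331 CPM in the contralateral horn. In each horn 1 library of day 13 reached into the day 7 range. It fell by log2 fold changes of -2.28 ± 0.77 (SE), adjusted p = 0.0318 and -1.93 ± 0.66 (SE), adjusted p = 0.0303. The ipsilateral call was lost without library 5-117 of day 7 or 5-140 or 5-167 or 6-203 or 8-275 of day 13 (adjusted p up to 0.149) and the contralateral call without library 6-338 of day 7 or 5-140 or 6-203 or 8-275 of day 13 (adjusted p up to 0.182). COL26A1 fell in the contralateral horn from 68.6 ± 28.3 to 30.8 ± 18.2 CPM (-1.16 ± 0.37 (SE), adjusted p = 0.0202), a call lost without library 2-1337 of day 7 (adjusted p up to 0.0689) and with the microRNA and tRNA covariate (-0.21, adjusted p = 0.7404).

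Over the same step 7 of 25 collagen-modifying enzymes fell in the ipsilateral and 9 of 25 in the contralateral horn, where 14% and 17.5% of all genes fell. PLOD1, a lysyl hydroxylase, had -1.63 ± 0.21 (SE, adjusted p = 1.24e-05) and -1.75 ± 0.19 (adjusted p = 8.26e-07). ITGA2, an integrin collagen receptor of epithelium, fell in both horns (-1.73 ± 0.34 and -1.27 ± 0.29), and ITGA1 rose in the contralateral horn (0.66 ± 0.18). ASPN, a proteoglycan that binds type I collagen, fell in both horns (-0.87 ± 0.22 and -0.90 ± 0.27), as did MMP15 (-1.02 ± 0.27 and -1.16 ± 0.26). Endothelial markers rose for 3 of 8 and 4 of 8 genes, where 14.6% and 16% of all genes rose, with sums of 347 to 662 and 554 to 859.9 CPM on days 7 and 13 in the ipsilateral horn, and their part was not tested.

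Without ipsilateral day 7 library 4-064 the ipsilateral count of chains was 13 in place of 7. The contralateral count was 5 in place of 8 without day 7 library 2-1337 or 6-338, or without day 13 library 4-1314, 5-167 or 6-203. With the microRNA and tRNA share as a covariate, the ipsilateral count was 11 (2 higher and 9 lower) and the contralateral count 3 (COL4A5, COL9A2 and COL20A1, all higher). In the ipsilateral horn COL9A3 and COL17A1 were not called under it (adjusted p = 0.292 and 0.113), nor was COL17A1 in the contralateral horn (adjusted p = 0.0643). Fitting all 40 libraries together, the calls of COL9A3 in the ipsilateral and of COL4A5 and COL26A1 in the contralateral horn were lost (adjusted p of 0.0511 to 0.115). Log2 depth as a covariate ended those of COL9A3 and COL17A1 in the ipsilateral and COL4A5 in the contralateral horn (adjusted p of 0.0544 to 0.0829). With no filter on low counts COL9A3 in the ipsilateral and COL1A2 and COL4A5 in the contralateral horn were not called (adjusted p of 0.0517 to 0.0539), nor was COL17A1 in the ipsilateral horn with only the 10 libraries of both days (adjusted p = 0.0592). The microRNA and tRNA share went from day 7 to day 13 from 0.0125 ± 0.000633% to 0.0148 ± 0.00136% of reads in the ipsilateral and from 0.00972 ± 0.000873% to 0.0118 ± 0.000913% in the contralateral horn.

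Between days 13 and 16 only COL22A1 changed, in each horn 1 of 40 chains, where 0.446% of all genes changed in the ipsilateral horn (0.193% higher and 0.253% lower) and 1.68% in the contralateral horn (0.608% higher and 1.07% lower). Its libraries on day 16 held 4.66, 5.69, 9.22, 12.4 and 22.3 CPM and 6.66, 7.26, 13.4, 18.7 and 18.9 CPM in the ipsilateral and contralateral horn. All lay below the day 13 libraries of their horn. COL22A1 fell 12.98-fold (-3.70 ± 0.66 (SE), adjusted p = 0.0205) and 8.13-fold (-3.02 ± 0.61 (SE), adjusted p = 0.0161). The ipsilateral call was lost without library 4-1314 of day 13 or 3-155 or 7-107 or 8-245 of day 16 (adjusted p up to 0.0628) and the contralateral call without library 8-245 of day 16 (adjusted p up to 0.0504). Without ipsilateral day 16 library 5-137 the ipsilateral count was 2.

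COL9A2 had its highest values on day 16, 4.23, 6.02, 6.49, 6.57 and 16.6 CPM in the ipsilateral and 3.88, 5.73, 6.19, 8.75 and 20.2 CPM in the contralateral horn, and its further change did not pass (1.31 ± 0.43 (SE), adjusted p = 0.228 and 1.05 ± 0.50 (SE), adjusted p = 0.378). The difference between the horns in the change from day 13 to 16 passed for 0 of 41 chains in edgeR, with 0 at an unadjusted p below 0.05, and for 0 in DESeq2, and 0% of all genes passed. The medians of the enzyme, receptor, proteoglycan and protease lists over this step lay between -0.13 and 0.15 in the 2 horns.

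The ratio of reads between chains that share a molecule differed from group to group for some pairs. The ratios are not corrected for gene length, so they can be compared between groups and not between genes, and they were not tested. COL4A3 to COL4A4 stood at 0.535 ± 0.0579 (mean ± SD, n = 5) on day 5, 1.33 ± 0.174 on day 7, 0.682 ± 0.0873 on day 13 and 0.831 ± 0.143 on day 16 in the ipsilateral horn. In the contralateral horn it was 0.477 ± 0.0492, 1.04 ± 0.245, 0.598 ± 0.165 and 0.633 ± 0.0861. Libraries of day 5 ranged over 0.482 to 0.609 and those of day 7 over 1.15 to 1.61 in the ipsilateral horn, and over 0.416 to 0.534 and 0.806 to 1.38 in the contralateral horn, so day 7 lay above day 5 in all libraries.

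COL6A3 to COL6A1 went from 1.15 ± 0.262 on day 5 to 0.627 ± 0.131, 0.616 ± 0.163 and 0.483 ± 0.118 on days 7, 13 and 16 in the ipsilateral horn, and from 0.9002 ± 0.279 to 0.692 ± 0.175, 0.666 ± 0.131 and 0.535 ± 0.0868 in the contralateral horn. COL6A1 to COL6A2, in contrast, had group means between 1.54 and 1.78 over the 8 groups. COL1A1 to COL1A2 was 0.602 ± 0.0497 on day 5 and 0.497 ± 0.0452 on day 16 in the ipsilateral horn, and 0.686 ± 0.0692 and 0.55 ± 0.0161 in the contralateral horn, where it was higher on average on each of the 4 days. COL4A5 to COL4A6 varied most within groups, for instance over 2.46 to 12.1 among the 5 ipsilateral libraries of day 13.

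**Figure D4:**
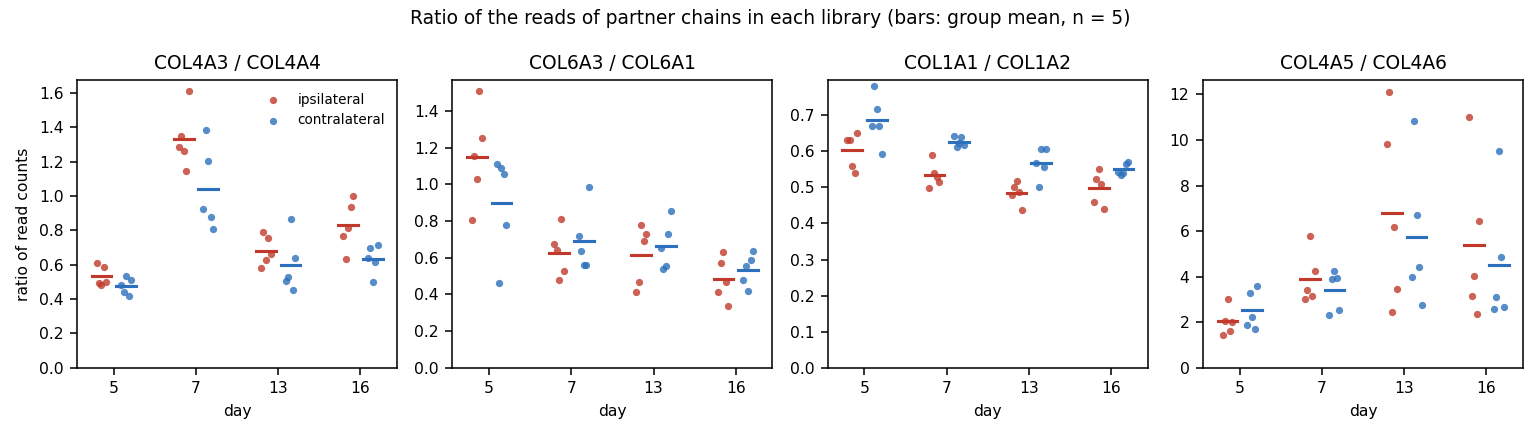
Ratio of read counts of 4 pairs of collagen chains (vertical axis, from 0) in each of 40 libraries by day (horizontal axis), ipsilateral libraries in red and contralateral in blue, with bars at group means (n = 5). The ratio of COL4A3 to COL4A4 peaks on day 7 in both horns, at means of 1.33 and 1.04, and that of COL6A3 to COL6A1 is highest on day 5.

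On the average of the 4 days, ipsilateral libraries had lower levels of 8 of 41 chains and higher levels of 2, where 38.2% of all 20356 genes tested differed (19.6% higher and 18.6% lower). The share of chains that differed, 24.4%, lay below that of all genes. The share of chains that were lower, 19.5%, was near the 18.6% of all genes. The median was -0.03 for the chains and -0.01 for all genes. The 8 lower chains were COL1A1, COL1A2, COL3A1, COL4A1, COL4A2, COL5A1, COL6A1 and COL6A2. COL1A1 had a log2 fold change, ipsilateral minus contralateral, of -0.60 ± 0.12 (SE), adjusted p = 9.04e-05, with group means of 3638 against 6034 CPM on day 5, 2026 against 3184 on day 7, 1295 against 1932 on day 13 and 1412 against 1941 on day 16. COL5A1 had -0.46 ± 0.12 (SE), adjusted p = 0.00159, and COL6A2 -0.44 ± 0.10 (SE), adjusted p = 0.000656. COL4A2 had -0.42 ± 0.11 (SE), adjusted p = 0.00255 and COL4A1 -0.38 ± 0.10 (SE), adjusted p = 0.00285. COL1A2 (-0.40), COL6A1 (-0.34) and COL3A1 (-0.30) were lower too, and the COL3A1 call was lost without library 7-300 of day 5 in the contralateral horn or 2-1337 of day 7 in the contralateral horn or 8-275 of day 13 in the contralateral horn (adjusted p up to 0.0706). With the tag as a replicate block COL11A1 was called as well (0.66, adjusted p = 0.0259), although 15 of 20 tags did not pair libraries in the data, so that a block may hold different animals. For each of the 8 lower chains the log2 fold change was negative on all 4 days.

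COL25A1 and COL24A1 were the 2 chains with higher ipsilateral levels. COL25A1 is a transmembrane collagen known from neurons. It held 0.849, 0.9801, 2.96, 3.25 and 4.26 CPM on day 5 in the ipsilateral and 0.566, 0.589, 0.691, 0.735 and 1.61 CPM in the contralateral horn, and 3.08 ± 1.31 against 1.897 ± 0.544 CPM (mean ± SD) on day 16. Its average log2 fold change was 0.90 ± 0.19 (SE), adjusted p = 0.000179. COL24A1 had 1.02 ± 0.32 (SE), adjusted p = 0.0103, from means of 1.71 ± 0.459 against 0.844 ± 0.557 CPM on day 5 and 0.398 ± 0.3304 against 0.225 ± 0.151 CPM on day 16, so both are genes of low count.

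**Figure D5:**
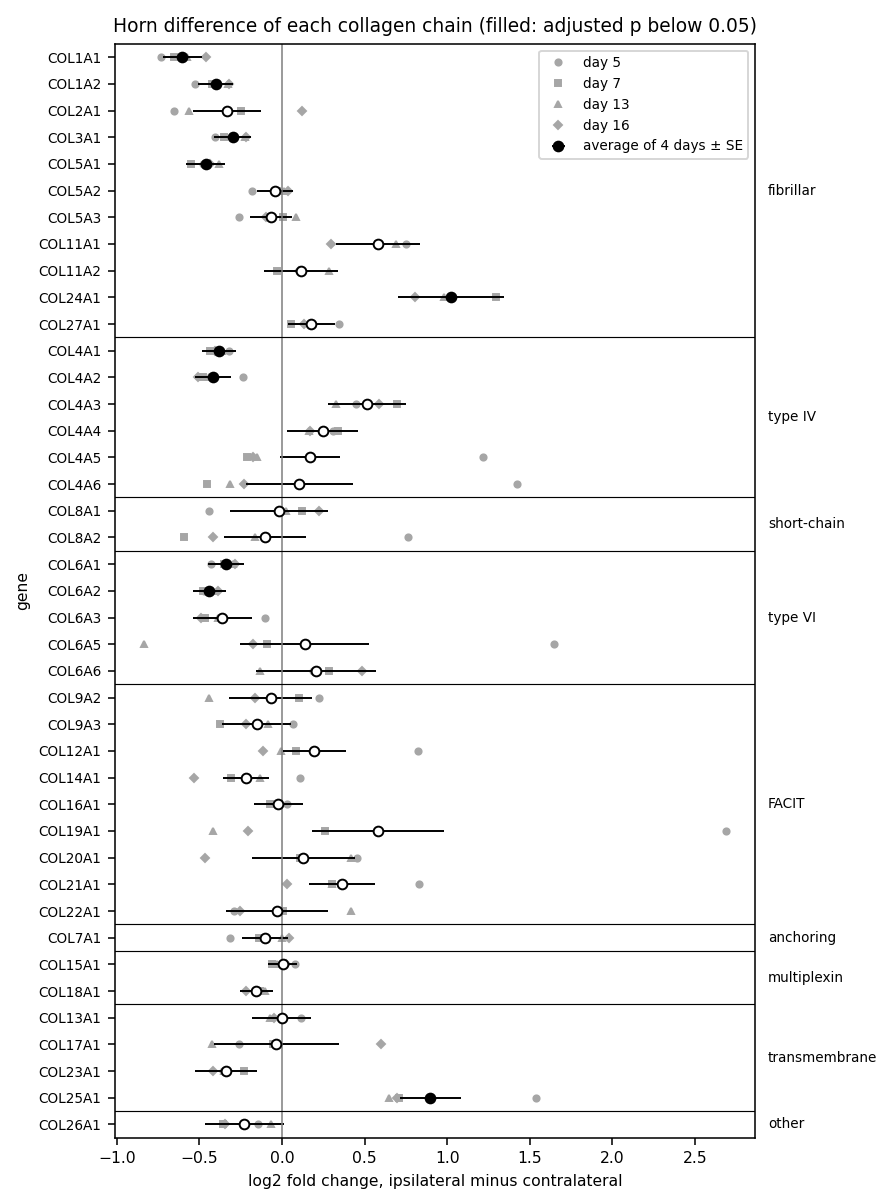
Log2 fold change of each collagen chain between the horns (horizontal axis, ipsilateral minus contralateral; rows by class), as grey symbols for each day and as black circles ± SE for the average of 4 days, filled where the adjusted p was below 0.05. The 8 filled circles left of 0 lie between -0.60 and -0.30, and COL24A1 and COL25A1 are the filled circles on the right.

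On single days the horns differed in few chains. On day 5, 4 of 41 differed, 3 higher and 1 lower, where 22.7% of all genes differed (12.3% higher and 10.4% lower). COL25A1 was higher in the ipsilateral horn (1.54 ± 0.38 (SE), adjusted p = 0.00296), as was COL19A1, a fibril-associated chain with 0.07096, 0.139, 0.212, 0.618 and 0.708 CPM in the ipsilateral and 0, 0.0298, 0.0566, 0.0654 and 0.113 CPM in the contralateral libraries (2.69 ± 0.81 (SE), adjusted p = 0.0145). The ipsilateral COL19A1 values rest on 2, 4, 8, 24 and 41 reads, and the contralateral ones on 0 to 4. COL19A1 met the count rule through ipsilateral day 5 libraries 1-315 (24 reads) and 3-175 (41 reads) and through contralateral libraries of later days. These were 8-275 of day 13 (15 reads) and 3-155 and 5-137 of day 16 (14 and 12 reads). Without the ipsilateral day 5 libraries it would have missed the rule, so its call is not independent of that rule. COL4A5 was higher by 1.22 ± 0.37 (SE), adjusted p = 0.0153, with contralateral values of 38.02, 50.4, 70.2, 72.8 and 90.8 CPM beside the ipsilateral ones given above. Without library 8-1350 of the ipsilateral horn it had 0.56, adjusted p = 0.237, and the tag as a replicate block gave 0.86, adjusted p = 0.131. COL1A1 was lower (-0.73 ± 0.24 (SE), adjusted p = 0.0229), with 1 contralateral library inside the ipsilateral range, and the call was lost without library 8-1350 of day 5 in the ipsilateral horn or 3-175 or 4-184 or 7-300 of day 5 in the contralateral horn (adjusted p up to 0.0681). The count was 2 without ipsilateral day 5 library 8-1350, and 1 (COL1A1) when only the 10 libraries of that day were fitted. In every one of these 4 chains the groups overlapped.

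On day 7, 0 of 41 chains differed in edgeR (11.7% of all genes, 7.52% higher and 4.2% lower), with 5 at an unadjusted p below 0.05, and DESeq2 called 1, COL1A1. The count was 1 without ipsilateral library 2-371 or contralateral library 6-338. On day 13 the count was 0 (5.72% of all genes, 4.52% higher and 1.2% lower), with 2 at an unadjusted p below 0.05, and on day 16 it was 0 (4.53%, 3.87% higher and 0.663% lower), with 1. DESeq2 called 0 on these 2 days.

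The horns also differed in receptors and enzymes, on the average of 4 days, where 18.6% of all genes were lower and 19.6% higher. There 12 of 25 collagen-modifying enzymes were lower and 3 higher in the ipsilateral horn, with the lysyl hydroxylase PLOD2 at 0.41 ± 0.11 and the lysyl oxidase LOX at 0.39 ± 0.08 (SE) among the higher ones. Of 9 receptors 4 were higher and 3 lower, with ITGA1 at 1.05 ± 0.10 (adjusted p = 3.72e-10) and ITGA2 at 0.65 ± 0.16. The proteoglycans ASPN (0.88 ± 0.13) and OGN (0.72 ± 0.14) were higher, and the proteases MMP2 (-0.30 ± 0.12) and MMP14 (-0.30 ± 0.08) lower. Epithelial markers were lower for 7 of 8 genes, stromal fibroblast markers for 3 of 8 and endothelial markers for 2 of 8, with epithelial sums of 677 to 1053 CPM against 1083 to 1448 CPM on day 5. Without ipsilateral day 5 library 8-1350, 11 enzymes were lower and 3 higher, and 3 receptors were higher and 3 lower. In that fit 2 of 8 stromal fibroblast markers were lower.

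The share of reads in microRNA and tRNA genes was higher in the ipsilateral horn, at 0.0112 ± 0.0009298% against 0.00885 ± 0.000567% on day 5 and 0.0152 ± 0.001499% against 0.0129 ± 0.001403% on day 16. With this share as a covariate, all 10 calls of the horn average were lost (COL1A1 -0.33, adjusted p = 0.3701; COL25A1 0.40, adjusted p = 0.522), while COL6A6 was called lower, and the day 5 count was 2 (COL4A5 and COL6A5, both higher), with the calls of COL1A1, COL19A1 and COL25A1 lost (adjusted p of 0.188 to 0.385). Over all genes that covariate took the horn average from 7768 to 2059 calls. On day 5 the share did not overlap between the horns, at 0.00989 to 0.0122% in ipsilateral and 0.0082 to 0.00941% in contralateral libraries. Horn and share thus moved together, and a fit with both separates them poorly. For the horn average the median SE of the chains was 0.338 with this covariate and 0.188 with log2 depth as the covariate. The part of this share in the horn differences was not tested.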

How the data were processed

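Endometrial RNA of 40 samples was measured by stranded mRNA sequencing of homogenised tissue, per the labels' protocols. The authors aligned the reads with HISAT2 to UMD3.1 after FastQC and counted them with featureCounts, per the submitters' processing notes; versions are not given in the sources used here. The deposited values are raw counts of reads per gene, used as they stand, and how shared or multi-mapped reads were counted is not given. The row of mitochondrial reads, a mean of 0.119% to 0.49% of the named genes' reads by group, was left out.

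The collagen chains, their classes and the pathway and marker lists were chosen with earlier results of these data known. Classes are textbook ones. Of 52 genes in the pathway lists 51 were in the table. All 41 chains were found by symbol in the RefSeq table of ARS-UCD2.0, used for names and neighbours only, since the counts are on another build; no sequence or coordinate was used here. Where a name has a second entry in the table, that entry is not one of the 41. Any chain may be named; libraries are given one by one for the chain of highest mean CPM in each class and for called chains with the largest changes.

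Tests were edgeR 4.0.16 (R 4.3.3, limma 3.58.1) quasi-likelihood tests with TMM factors and filterByExpr, with Benjamini-Hochberg adjustment over all genes tested and a threshold of 0.05. Day comparisons were fitted in the 20 libraries of each horn (19733 and 19559 genes) and horn comparisons and their change with day in all 40 libraries (20356 genes), with no block. The fit was also run on simulated counts with the same dispersion for every gene and independent libraries. Those settings are simpler than these data, and no result here rests on that run. The design takes both horns of each heifer and both carry the same 20 tags, but the 2 libraries of a tag deviated together (correlation across genes above 0.1) in 5 of 20 tags only, so the tag may not mark 1 heifer throughout. The value with the tag as a block is given where it changes a call. Library totals were 27.03 to 64.4 M reads, so that chains below 1 CPM rest on few reads. Alternatives were DESeq2 1.42.0, RLE scaling, no filter, other sets of libraries, log2 depth or the share of 801 microRNA and 1594 tRNA genes as a covariate, the tag block and each library left out. The microRNA and tRNA covariate in the day comparisons was chosen after seeing the data.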

Additional observations from a re-analysis of the deposited data

Results flagged for a closer look

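In groups of 5 libraries, a library is listed here where its gap to the nearest other library took more than 0.71 of the range of the group (Dixon's criterion). Over 22 chains shown by library, the summed smooth muscle markers and the total reads, 192 groups were tested and 20 had such a library; chance alone lists about 1 in 20 groups.

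Several libraries carried more than 1 of these values. Contralateral day 13 library 8-275 held 3377 CPM of COL1A1 (1257 to 1762 in the other 4), 5558 CPM of COL1A2 (2516 to 3050.5), 8.64 CPM of COL8A1 (2.25 to 4.08) and 62.2 CPM of COL26A1 (16.0 to 28.4), beside a smooth muscle marker sum of 757 CPM (454 to 522). Ipsilateral day 5 library 8-1350 held 1542 CPM of COL12A1 (301 to 579) and a smooth muscle marker sum of 4845 CPM (643 to 896). Contralateral day 7 library 2-1337 held 118 CPM of COL26A1 (45.9 to 63.3) and 3258 CPM of COL6A1 (1806 to 1898).

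Ipsilateral day 7 library 5-117 held 18.6 CPM of COL8A1 (2.53 to 5.99) and 1.44 CPM of COL17A1 (0.247 to 0.364). Contralateral day 7 library 6-338 held 15.6 CPM of COL8A1 (2.87 to 4.78). It was the contralateral library that correlated best with ipsilateral 5-117 across genes (0.83), so these flags may come from 1 heifer. Ipsilateral day 13 library 4-1314 held 334 CPM of COL22A1 (72.9 to 109) and 0.413 CPM of COL17A1 (0 to 0.0648).

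Among the rest, COL4A4 was low at 57.4 CPM in contralateral day 7 library 4-064 (113 to 131) and high at 158 CPM in contralateral day 16 library 2-068 (64.5 to 84.3). COL9A2 was high at 16.6 CPM in ipsilateral day 16 library 3-155 (4.23 to 6.57), and COL17A1 low at 0.883 CPM in contralateral day 5 library 4-184 (1.07 to 1.13). COL25A1 was high at 1.61 CPM in contralateral day 5 library 7-300 (0.566 to 0.735), and COL6A1 at 2699 CPM in ipsilateral day 5 library 7-300 (2231 to 2291).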

How the results depend on the processing

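No alternative turned the direction of a named call. With a covariate for the microRNA and tRNA share of reads, the number of collagen chains called was 11 from day 7 to 13 in the ipsilateral horn, 6 from day 5 to 7 and 3 from day 7 to 13 in the contralateral horn (main counts 7, 12 and 8; these covariate fits were chosen after seeing the data), 2 for the horns on day 5 and 1 for the horn average (main counts 4 and 10). The cause was not tested. Fitting only the 10 libraries of day 5 gave 1, and DESeq2 gave 1 for the horns on day 7. Leaving out 1 library at a time gave 13 to 20 from day 5 to 7, 5 to 13 from day 7 to 13 and 0 to 2 from day 13 to 16 in the ipsilateral horn. In the contralateral horn the ranges were 7 to 18, 5 to 10 and 0 to 1. Between the horns they were 2 to 5 on day 5, 0 to 1 on day 7, 0 to 0 on days 13 and 16 and 10 to 11 for the average.

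With the tag as a replicate block, 3 chains were called between the horns on day 5 and 11 on the average of the days, where COL11A1 was added (0.66, adjusted p = 0.0259), and COL4A5 on day 5 was the call lost; the block changed no other call of a chain. The correlation of the 2 libraries of a tag ranged from -0.311 to 0.773 (median -0.0359), and 5 of 20 ipsilateral libraries correlated best with the contralateral library of their own tag. The other 15 correlated best with another tag of the day (0.0874 to 0.8295), so the block may pair libraries of different animals and its values are limited by that.

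Main limits are bulk tissue, 5 libraries a group, low counts for COL17A1, COL19A1 and COL24A1, unknown handling of shared reads and gene lengths that were not used.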
